A study of Mus musculus with 4 samples.

Results

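The comparison sets the array of Fancd2 knockout cells (Fancd2KO) directly against the array of Foxo3a knockout cells (Foxo3aKO). These are 2 of the 4 arrays of the study, and 12041 of the 22180 genes measured with a single-symbol probe set entered the comparison. The others are the arrays of the double knockout (DKO) and of wild type (WT), which are printed beside the pair to show where it lay and enter no difference. All 4 samples were bone marrow mononuclear cells of mice aged 2 months, taken from a Ficoll gradient and sorted for c-Kit and Sca-1 on the surface without lineage antigens or CD34. Long-term haematopoietic stem cells lie in that gate. The labels name the cells SLAM, although CD150 and CD48 are not part of the listed gate. Not given in the sources used here were the knockout alleles, the strain and sex of the mice, the lineage antibodies and the number of mice or cells behind an array. With 1 array per genotype there was no test and no replicate check, so every value below describes a pair of arrays and not the spread between mice.

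Fancd2 is the protein at the centre of the Fanconi anaemia pathway: the core complex attaches ubiquitin to it at stalled replication forks, and it then directs the repair of DNA crosslinks. Foxo3a, the product of Foxo3, is a forkhead transcription factor that acts in the nucleus when insulin and cytokine signalling through AKT is low, and it switches on genes of cell cycle arrest, antioxidant defence and autophagy. Both proteins are known for keeping haematopoietic stem cells from exhaustion, the first by protecting the genome and the second by holding the cells in quiescence. Setting one knockout against the other shows which transcripts stood at different levels on the array of cells labelled as lacking the repair protein and on that of cells labelled as lacking the forkhead factor.

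Levels and differences are on the log2 scale throughout. Each difference is Fancd2KO minus Foxo3aKO, so a positive one is higher in Fancd2KO, and a difference of 1 is 2-fold. A gene was compared where its highest value on the 4 arrays reached the floor of 5.51, the median of all gene values. Where a level of the pair lay under that floor its fold is not exact, and for differences of 2-fold or more the value with dim values raised to the floor is given too. For 728 genes with 2 probe sets, the probe sets disagreed about the difference with an SD of 0.44, and 95% of them disagreed by less than 0.88. Such a disagreement joins the errors of 2 probe sets and leaves out any offset that both share, so it is not the error of 1 difference. It is used below as a rough scale and holds no spread between animals.

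The targeted genes came first. Fancd2 (probe set 17461739, chromosome 6) stood at 6.08 in Fancd2KO, 6.67 in Foxo3aKO, 5.84 in DKO and 6.56 in WT, a difference of -0.59. That size is over the probe set disagreement SD of 0.44 and under the 0.88 that bounds 95% of the disagreements. The arrays labelled as lacking Fancd2 were thus the lowest and DKO was lower still. Foxo3 (probe set 17240529, chromosome 10) stood at 6.72 in Fancd2KO, 6.64 in Foxo3aKO, 6.51 in DKO and 6.62 in WT, a difference of 0.08. The Foxo3 signal was therefore not lower on the array labelled Foxo3a knockout, and all directions below rest on the labels. Which exons were deleted and which lie under this probe set was not known, so the signal does not check that label.

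The arrays matched in overall level, with medians over all 41345 probe sets of 5.27 in Fancd2KO and 5.34 in Foxo3aKO, and spiked controls within 0.1 of each other. Background probe sets, which match no mouse gene, did not match in the same way. Those with at least 18 G or C bases had a median of 6.32 in Fancd2KO, 5.88 in Foxo3aKO, 6.49 in DKO and 6.41 in WT. For those with at most 8 G or C bases the median was 2.08 in Fancd2KO, 1.99 in Foxo3aKO, 2.06 in DKO and 2.0 in WT. The background difference was 0.06 at 3 G or C bases and 0.46 at 25, and it was above 0 at every step between. Small positive differences of whole lists lie in the range of this offset, and its part in them was not tested.

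**Figure D1:**
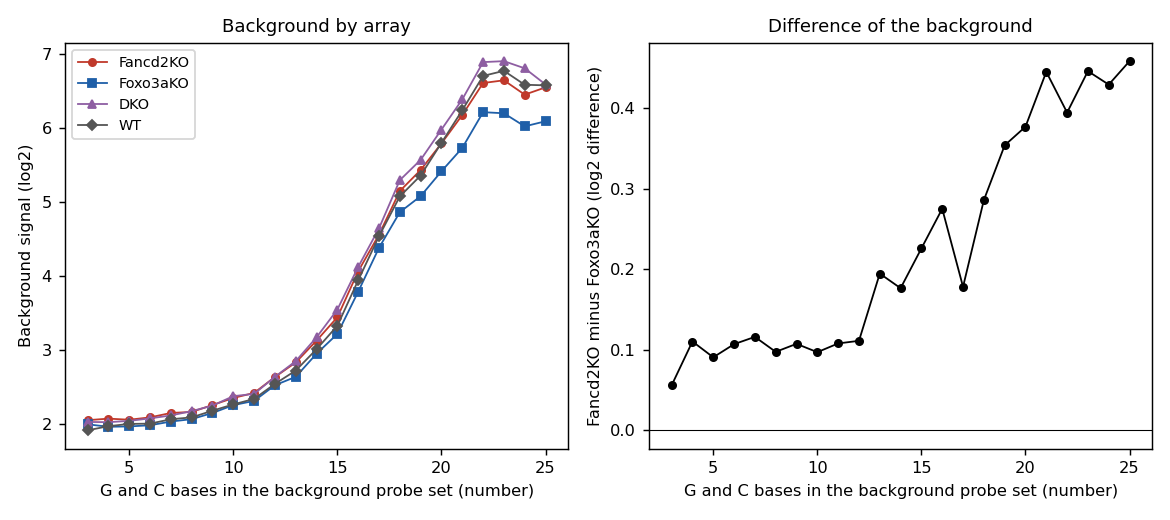
Left, the log2 signal of background probe sets by their number of G and C bases, 1 line per array; right, the Fancd2KO minus Foxo3aKO difference of these signals. The Foxo3aKO line is the lowest of the 4 from 4 bases on, and the difference reaches 0.46 at 25 bases.

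Genes lower in Fancd2KO outnumbered genes higher in it at the 2-fold threshold. Of 12041 genes, 91 were at least 2-fold higher (0.756%) and 246 were at least 2-fold lower (2.04%), which together made 2.8% of the genes compared, and 73.0% of those past 2-fold were lower. With each array centred on its median that split was 62.6%, from 125 higher and 209 lower genes. The median difference over all 12041 genes was 0.049, with an SD of 0.41, and 6768 genes were higher and 5265 lower at any size. The 3010 brightest genes, from a mean level of 8.08 upward, held 12 genes at least 2-fold higher and 64 at least 2-fold lower. Among the 3011 dimmest genes the counts were 33 and 72. Counts at 2-fold on the lists below are to be read beside the shares over all genes compared. For marker lists, which use no floor, the shares over all 22180 genes were 0.546% higher and 1.39% lower.

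The other arrays show which member of the pair stood apart. Among the 246 lower genes, Foxo3aKO was the highest of the 4 arrays for 203 and Fancd2KO the lowest for 156. The DKO level was nearer to Fancd2KO for 173 of them and nearer to Foxo3aKO for 73, and the WT level was nearer to Fancd2KO for 147 and to Foxo3aKO for 99. Among the 91 higher genes, Fancd2KO was the highest of the 4 arrays for 71 and Foxo3aKO the lowest for 52. DKO was nearer to Fancd2KO for 29 of these and to Foxo3aKO for 62. A gene chosen for a gap between 2 arrays will often have one of them at an extreme, so these counts describe the chosen genes and test nothing.

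**Figure D2:**
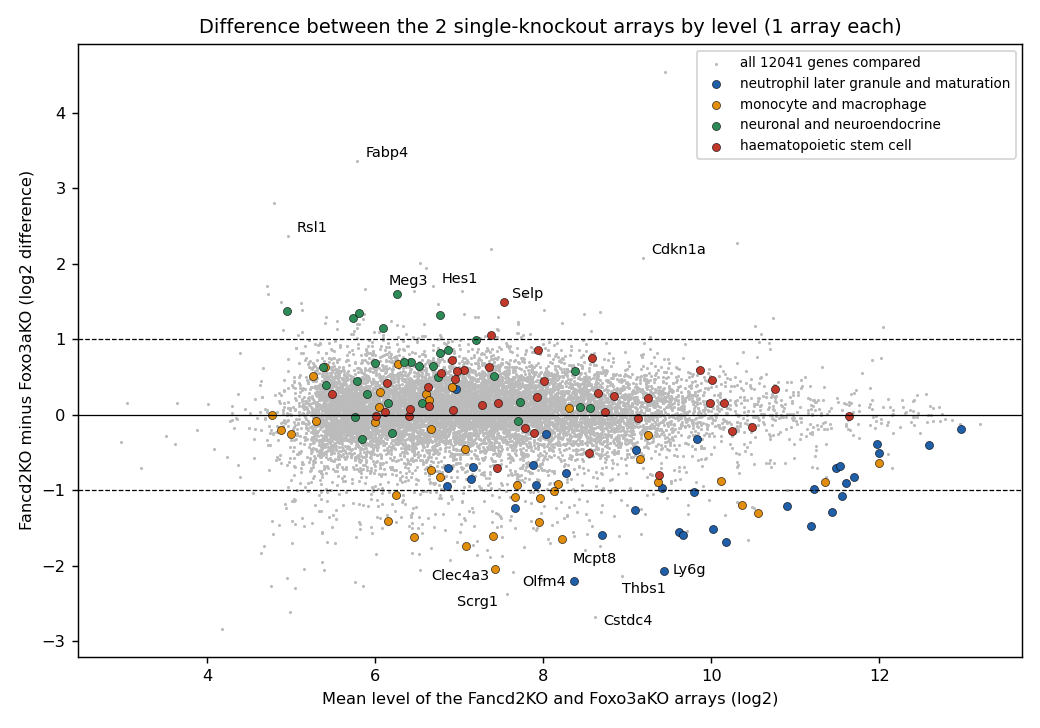
Fancd2KO minus Foxo3aKO difference (log2) of each of the 12041 genes against its mean level on the 2 arrays, with 4 marker lists coloured and dashed lines at 2-fold. The neutrophil maturation and monocyte genes lie mostly below 0 up to the brightest levels, while neuronal genes above 1 have mean levels of about 5 to 7; the highest grey point is an antibody light chain segment.

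Neutrophil genes made the clearest block among the lower genes. Neutrophils first fill primary granules at the promyelocyte stage, then secondary and tertiary granules, and last acquire receptors for chemotaxis. Of 36 measured genes of later granules and maturation, 35 were lower in Fancd2KO and 1 was higher, with a median difference of -0.92 against 0.049 over all genes compared. At least 2-fold lower were 14 of the 36 and 0 were at least 2-fold higher. The shares over all 22180 genes without the floor were 1.39% lower and 0.546% higher. The median level of the list was 8.90 in Fancd2KO, 10.34 in Foxo3aKO, 9.01 in DKO and 9.60 in WT, and Foxo3aKO was the highest array for 34 of the 36 genes. WT lay between the 2 knockouts in that median.

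The receptors and surface proteins of the neutrophil list had a median of -1.05 over 10 genes, all lower. Ly6g, the antigen that defines mouse neutrophils, stood at 8.40 in Fancd2KO, 10.47 in Foxo3aKO, 7.96 in DKO and 9.75 in WT, a difference of -2.06. Itgam, the integrin chain CD11b, had levels of 8.86, 10.46, 9.43 and 9.66 in the same order and differed by -1.59. Fpr2, a receptor for formylated bacterial peptides, stood at 9.27 in Fancd2KO, 10.77 in Foxo3aKO, 9.73 in DKO and 10.02 in WT, a difference of -1.51. In these 3 genes Foxo3aKO was the highest array, WT was second, and the 2 arrays labelled as lacking Fancd2 were the lowest.

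Granule genes of the same list were lower in 11 of 11 cases, with a median of -0.82. Olfm4, a secondary granule glycoprotein, stood at 7.26 in Fancd2KO, 9.46 in Foxo3aKO, 7.0 in DKO and 7.20 in WT, a difference of -2.20. Here Foxo3aKO alone was high and the other 3 arrays lay close together. Mmp9, the gelatinase of tertiary granules, stood at 8.84 in Fancd2KO, 10.39 in Foxo3aKO, 8.99 in DKO and 9.71 in WT, and Mmp8, a collagenase, at 10.44, 11.92, 10.36 and 10.90. Their differences were -1.55 and -1.48. Lactoferrin, Ltf, one of the brightest genes of the list, stood at 11.14 in Fancd2KO, 12.05 in Foxo3aKO, 11.03 in DKO and 11.59 in WT, a difference of -0.91. Ngp differed by -0.70 and the cathelicidin gene Camp by -0.50. The 4 calprotectin and related S100 genes had a median of -0.36, and S100a8, at 12.88 in Fancd2KO, 13.07 in Foxo3aKO, 12.91 in DKO and 13.02 in WT, differed by only -0.19.

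Primary granule genes, which mark earlier granulocyte and monocyte precursors, did not follow. Of 12 measured, 4 were higher and 8 lower, 0 were 2-fold apart in either direction, and the median difference was -0.07. Myeloperoxidase, Mpo, stood at 11.59 in Fancd2KO, 11.65 in Foxo3aKO, 11.77 in DKO and 11.41 in WT. Neutrophil elastase, Elane, stood at 10.72 in Fancd2KO, 10.79 in Foxo3aKO, 11.11 in DKO and 10.11 in WT. For both genes the pair differed by less than 0.1 and WT was the lowest array. Haptoglobin, Hp, had the largest difference, -0.63, of the genes placed on this list, whose assignment to a granule was not checked. Gfi1, the transcription factor that drives granulocyte commitment, was the 1 gene of the later list that was higher in Fancd2KO, at 7.13 against 6.78 in Foxo3aKO, and was picked out after its value was seen.

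In sorted bulk RNA, fewer cells of a type and less RNA per cell cannot be told apart, and this holds for every cell type list here. The gate removes lineage-positive cells, which commonly include those with Gr-1 and CD11b, yet neutrophil genes were bright on all 4 arrays. How much of the neutrophil signal came from other cells in the sort was not tested.

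**Figure D3:**
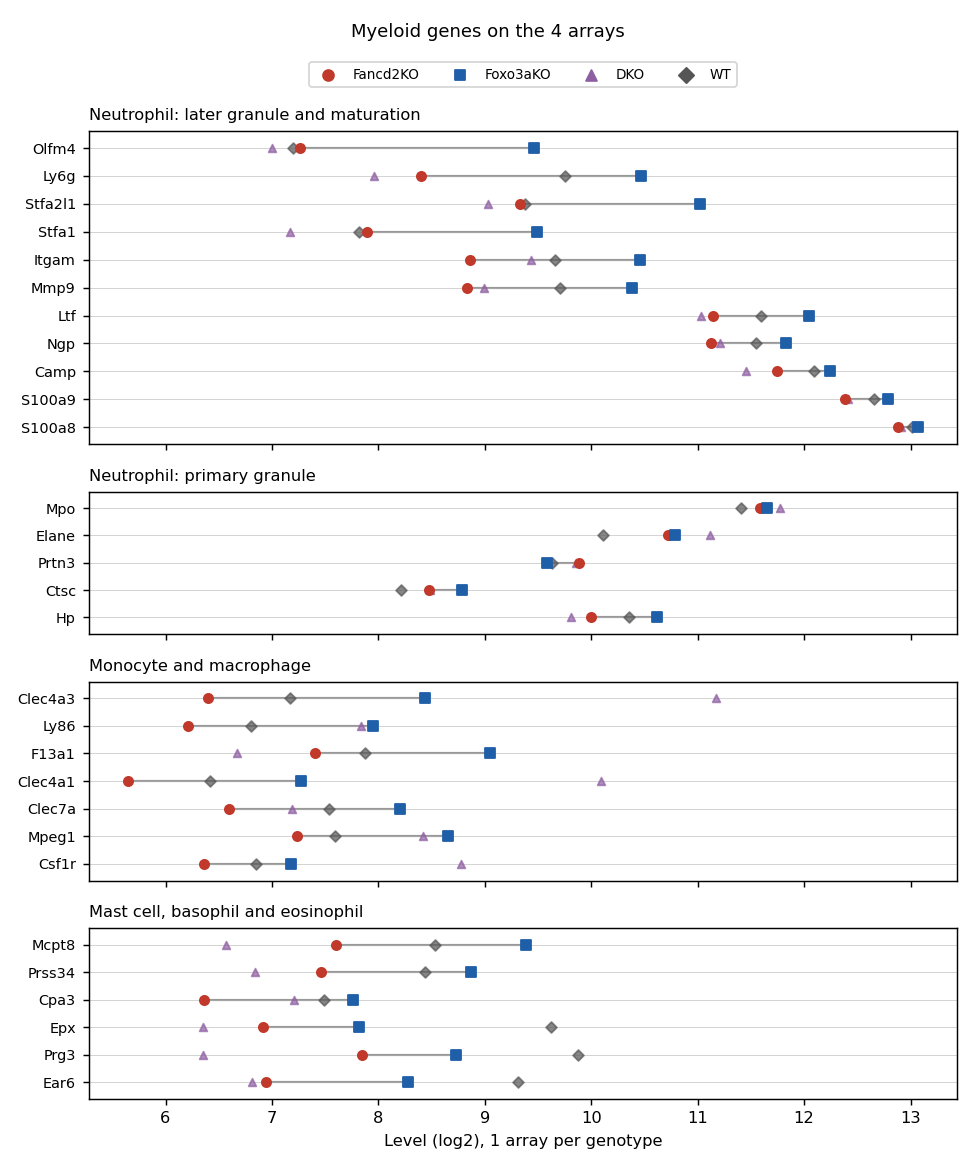
Log2 levels of myeloid genes on each of the 4 arrays, 1 point per array, with a grey line joining Fancd2KO and Foxo3aKO. Foxo3aKO is the rightmost point for the later neutrophil genes, Mpo and Elane nearly coincide between the 2 knockouts, and DKO is far to the right for Clec4a1, Clec4a3 and Csf1r.

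A single gene cluster accounted for several of the largest neutrophil differences. The stefin A and cystatin domain genes, inhibitors of cysteine proteases that mouse neutrophils make in large amounts, lie together on chromosome 16. Cstdc4 had the largest lower difference of all nameable genes, -2.68, with levels of 7.27 in Fancd2KO, 9.95 in Foxo3aKO, 7.31 in DKO and 8.21 in WT. Stfa2l1 stood at 9.33 in Fancd2KO, 11.02 in Foxo3aKO, 9.03 in DKO and 9.38 in WT, and Stfa1 at 7.89, 9.49, 7.17 and 7.82, with differences of -1.69 and -1.60. Stfa3 stood at 6.43 in Fancd2KO, 8.23 in Foxo3aKO, 4.45 in DKO and 7.32 in WT, a difference of -1.80. Of 11 measured members of the cluster, 10 were lower and 6 were at least 2-fold lower, and 6 reached the floor. Over all 22180 genes measured without the floor, 1.39% were at least 2-fold lower. The dim Cstdc6 reached the floor on Foxo3aKO alone, and differed by -2.61 as measured and by -0.79 with dim values raised to the floor. Foxo3aKO was the highest array for each of the 6 genes past 2-fold, which were counted for lying higher on it than on Fancd2KO. These genes are recent copies, so their probes may read each other's transcripts, and the cluster was singled out after its values were seen.

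The promoters of 3 cluster members are shown because they hold the motif given below. They are close copies of each other and lie ahead of genes that were lower together. Of these genes, Cstdc5 reached the floor on Foxo3aKO alone, at 4.95 in Fancd2KO, 6.58 in Foxo3aKO, 5.23 in DKO and 4.68 in WT. The windows run from 250 bases before to 50 bases after the RefSeq start in GRCm38.p6, 5′ to 3′ on the gene's strand, and capitals mark the GATA motif AGATAA, searched on both strands. In a global alignment with gaps, identical bases made up 89.7% of the 300 between Stfa1 and Cstdc5 and 82.7% between Stfa1 and Stfa3. The same alignment of these windows with those of the unrelated genes Pilrb1 and Pilrb2 gave 55.7% to 60%. Stfa1 is at chr16:36276898-36277197 (plus strand), Stfa3 at chr16:36455343-36455642 (minus strand) and Cstdc5 at chr16:36367521-36367820 (minus strand).
Stfa1: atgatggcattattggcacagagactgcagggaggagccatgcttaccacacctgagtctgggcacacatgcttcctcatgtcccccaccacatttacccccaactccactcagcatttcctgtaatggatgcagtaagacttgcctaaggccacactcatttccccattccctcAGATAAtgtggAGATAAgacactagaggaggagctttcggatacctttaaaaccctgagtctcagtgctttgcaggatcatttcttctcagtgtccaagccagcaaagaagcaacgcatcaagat
Stfa3: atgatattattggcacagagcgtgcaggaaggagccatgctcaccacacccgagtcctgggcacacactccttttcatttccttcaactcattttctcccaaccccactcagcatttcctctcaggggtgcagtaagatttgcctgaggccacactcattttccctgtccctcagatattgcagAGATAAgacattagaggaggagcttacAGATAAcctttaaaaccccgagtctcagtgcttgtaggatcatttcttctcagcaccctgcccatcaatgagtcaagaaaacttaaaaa
Cstdc5: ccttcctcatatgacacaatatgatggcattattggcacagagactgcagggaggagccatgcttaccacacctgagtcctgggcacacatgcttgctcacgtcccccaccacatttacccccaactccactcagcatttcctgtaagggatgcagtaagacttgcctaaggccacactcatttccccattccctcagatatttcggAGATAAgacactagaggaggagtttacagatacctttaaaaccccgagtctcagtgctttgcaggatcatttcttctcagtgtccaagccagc
The motif occurred 2 times in Stfa1, at -75 and -64 from the start, 2 times in Stfa3, at -66 and -39, and 1 time in Cstdc5, at -43. The windows of Cstdc4 and Stfa2l1, which were also at least 2-fold lower, held no match, although Stfa2l1 shared 81.3% with Stfa1. Over the first listed window of each gene it was in 24 of 188 promoters of genes at least 2-fold lower (12.8%) and in 4 of 49 of genes at least 2-fold higher (8.16%). Near-copies count separately in the 24, among them Stfa1, Stfa3 and Cstdc5, and also Pilrb1 and Pilrb2. All genes compared gave 6.46% of 9504 promoters and all 27025 promoters of the table gave 11.4%. A match of these letters is a description and not a binding site.

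Monocyte and macrophage genes were the second lower block. Of 41 measured genes 30 were lower and 10 higher in Fancd2KO, 13 were at least 2-fold lower and 0 at least 2-fold higher, and the median difference was -0.64. Without the floor, 1.39% of all 22180 genes were at least 2-fold lower and 0.546% at least 2-fold higher. The median levels were 6.61 in Fancd2KO, 7.27 in Foxo3aKO, 7.84 in DKO and 6.81 in WT. Fancd2KO was the lowest array for 22 of the 41 genes, and DKO was the highest for 23, so the DKO array did not lie with Fancd2KO here as it did for neutrophil genes. Together with the neutrophil lists, this list held 27 of the 246 genes at least 2-fold lower and 0 of the 91 at least 2-fold higher. Of the 12041 genes compared, 35 were on the later neutrophil list, 39 on the monocyte list and 11 on the primary granule list. With so few members, the 0 of 91 is not a result about these lists.

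The members differed in where the 4 arrays stood. Clec4a3, a C-type lectin receptor, stood at 6.40 in Fancd2KO, 8.44 in Foxo3aKO, 11.17 in DKO and 7.17 in WT, a difference of -2.04. Clec4a1, its neighbour, stood at 5.65 in Fancd2KO, 7.27 in Foxo3aKO, 10.09 in DKO and 6.42 in WT, a difference of -1.62. DKO was the highest array by far for both of them. F13a1, the coagulation factor chain made by classical monocytes, stood at 7.40 in Fancd2KO, 9.05 in Foxo3aKO, 6.67 in DKO and 7.88 in WT, a difference of -1.65. For that gene DKO was the lowest array. Ly86, the partner of a Toll-like receptor relative, stood at 6.21 in Fancd2KO, 7.95 in Foxo3aKO, 7.84 in DKO and 6.81 in WT, and differed by -1.74.

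Csf1r, the receptor that defines the monocyte lineage, stood at 6.36 in Fancd2KO, 7.18 in Foxo3aKO, 8.78 in DKO and 6.85 in WT, a difference of -0.82. The pattern recognition receptor Clec7a differed by -1.61 and the pore-forming Mpeg1 by -1.42. Genes best known from tissue macrophages did not share 1 direction. Adgre1, which encodes the antigen F4/80, stood at 5.45 in Fancd2KO, 6.86 in Foxo3aKO, 8.39 in DKO and 6.62 in WT, a difference of -1.41, or -1.35 with dim values raised. C1qb, a complement chain, stood at 6.61 in Fancd2KO, 5.93 in Foxo3aKO, 8.01 in DKO and 6.84 in WT, and Spic, a factor of iron-recycling macrophages, differed by 0.64, or by 0.21 with dim values raised. Adgre1, C1qb and Spic were picked out after their values were seen.

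Innate receptor families on myeloid cells shared the direction, as counted after their values were seen. All 9 measured Cd300 genes, paired activating and inhibitory receptors on chromosome 11, were lower, 4 of them at least 2-fold, with a median of -0.78. Cd300lf stood at 7.56 in Fancd2KO, 8.93 in Foxo3aKO, 7.84 in DKO and 7.70 in WT. Of 11 Clec4 genes, 9 lay lower, 5 of them by at least 2-fold (median -0.85). Among these 5, Clec4n lay under the floor on every array, at 3.83 in Fancd2KO and 4.93 in Foxo3aKO, so its fold is not exact. Of 12 Toll-like receptor genes, 9 lay lower, 3 of them by at least 2-fold (median -0.63). Those 3 detect nucleic acids inside endosomes, but so do Tlr9, which differed by -0.69, and Tlr3, at 0.20 and under the floor on every array. Tlr13 stood at 6.60 in Fancd2KO, 8.69 in Foxo3aKO, 7.43 in DKO and 7.10 in WT, a difference of -2.09. Tlr8 and Tlr7 differed by -2.06 and -1.27, but by -0.91 and -0.46 with dim values raised. The 20 Ms4a genes had a median of only -0.19, and 2 of them lay lower by at least 2-fold. Over all 22180 genes measured without the floor, 1.39% were at least 2-fold lower. Family members can share probes, so single values are uncertain.

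The activating receptor genes Pilrb1 and Pilrb2 on chromosome 5 were also among the 15 largest lower differences. Pilrb1 stood at 6.28 in Fancd2KO, 8.14 in Foxo3aKO, 8.05 in DKO and 6.24 in WT, a difference of -1.86. Pilrb2 stood at 5.09 in Fancd2KO, 6.94 in Foxo3aKO, 6.06 in DKO and 5.92 in WT, a difference of -1.85, or -1.43 with dim values raised. For Pilrb1 the 2 arrays labelled as lacking Foxo3a were high and the other 2 low. Their promoters, at chr5:137858000-137858299 and chr5:137871709-137872008 (GRCm38.p6, minus strand), are shown because 97.3% of their bases are identical in the same kind of alignment and both hold the interferon-stimulated response element core, in capitals: GAAA, any 2 bases, then GAAA, searched on both strands.
Pilrb1: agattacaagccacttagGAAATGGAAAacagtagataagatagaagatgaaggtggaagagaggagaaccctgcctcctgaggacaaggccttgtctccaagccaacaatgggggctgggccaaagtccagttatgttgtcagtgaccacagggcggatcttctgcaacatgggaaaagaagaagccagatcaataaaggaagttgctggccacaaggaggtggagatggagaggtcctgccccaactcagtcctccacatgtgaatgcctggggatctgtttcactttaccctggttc
Pilrb2: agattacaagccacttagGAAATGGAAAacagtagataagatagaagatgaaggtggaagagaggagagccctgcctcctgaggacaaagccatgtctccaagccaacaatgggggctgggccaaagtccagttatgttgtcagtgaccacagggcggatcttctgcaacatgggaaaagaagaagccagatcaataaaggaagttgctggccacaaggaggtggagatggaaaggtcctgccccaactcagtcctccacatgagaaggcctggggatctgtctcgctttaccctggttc
That core lay at -232 from the start in both. It was in 11 of 188 promoters of genes at least 2-fold lower (5.85%), in 4 of 49 of genes at least 2-fold higher (8.16%) and in 3.21% of the 9504 promoters of all genes compared. The near-copies Pilrb1 and Pilrb2 count separately in the 11. On the interferon response list 21 of 38 promoters held that core (55.3%), although that list had a median difference of only 0.14. The FOXO core GTAAACA was in 6 of 188 promoters of lower genes (3.19%), in 0 of 49 of higher genes and in 2.54% of all genes compared. The cyclic AMP response element TGACGTCA had shares of 1.06% of lower, 6.12% of higher and 3.19% of all genes compared. The C/EBP palindrome TTGCGCAA was in 1 of 188, 0 of 49 and 0.263%.

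Granulocytes of the other lineages gave lower medians too, with a different order of the arrays. Without the floor, 1.39% of all 22180 genes were at least 2-fold lower. Of 13 measured eosinophil genes 10 lay lower, 3 of them by at least 2-fold, and the median was -0.77. Eosinophil peroxidase, Epx, stood at 6.92 in Fancd2KO, 7.82 in Foxo3aKO, 6.35 in DKO and 9.62 in WT, a difference of -0.90. Prg3, a granule basic protein, stood at 7.84 in Fancd2KO, 8.73 in Foxo3aKO, 6.35 in DKO and 9.88 in WT. WT was the highest array for 10 of the 13 genes, and for Epx and Prg3 both single knockouts lay under WT, Fancd2KO further than Foxo3aKO. Of 27 mast cell and basophil genes 19 lay lower, 5 of them by at least 2-fold, and the median was -0.31, or 0 with dim values raised to the floor. The basophil protease Mcpt8 stood at 7.60 in Fancd2KO, 9.39 in Foxo3aKO, 6.56 in DKO and 8.53 in WT, a difference of -1.79. Prss34, another basophil protease, differed by -1.42, the mast cell carboxypeptidase Cpa3 by -1.39 and the leukotriene enzyme Alox5 by -1.74. Gata2, which is also a stem cell factor, was higher by 0.76.

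Some inflammatory and adhesion genes, many of which myeloid cells also make, were lower beside these markers. On the TNF, NF-kB and cytokine list 30 of 47 genes were lower and 17 higher, 6 at least 2-fold lower and 0 at least 2-fold higher. Over all genes compared, 2.04% were at least 2-fold lower and 0.756% at least 2-fold higher. The list median was -0.26, or -0.12 without the floor. The 10 chemokine genes had a median of -0.81, whereas the 19 signalling components had one of 0.09. Ccl2, which attracts monocytes, stood at 7.21 in Fancd2KO, 8.35 in Foxo3aKO, 6.02 in DKO and 5.39 in WT, a difference of -1.15. Il1r2, the decoy receptor for interleukin 1, stood at 8.45 in Fancd2KO, 9.72 in Foxo3aKO, 6.92 in DKO and 6.55 in WT, and the inflammasome sensor Nlrp3 at 6.06, 7.59, 5.85 and 5.33, with differences of -1.27 and -1.53. In these 3 genes both single knockouts were above WT and DKO, and Foxo3aKO was the higher of the pair. The transcription factor subunits Rela (0.41) and Nfkb2 (0.46), named after their values were seen, were not lower.

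Of 27 adhesion and niche genes 17 were lower and 10 higher, 3 at least 2-fold lower and 1, Selp, at least 2-fold higher at 1.49. The shares over all genes compared were 2.04% lower and 0.756% higher at 2-fold. The list median was -0.28, or -0.16 without the floor. Thbs1, the matrix protein thrombospondin that platelets also store, stood at 7.86 in Fancd2KO, 10.003 in Foxo3aKO, 7.49 in DKO and 7.65 in WT, a difference of -2.14. Foxo3aKO alone was high. Fibronectin, Fn1, stood at 8.10 in Fancd2KO, 9.70 in Foxo3aKO, 7.21 in DKO and 8.61 in WT. The leukocyte integrin chain Itgb2 stood at 9.11 in Fancd2KO, 10.32 in Foxo3aKO, 10.16 in DKO and 9.79 in WT and differed by -1.2. Scrg1, a secreted protein first described in scrapie-infected brain, stood at 6.38 in Fancd2KO, 8.76 in Foxo3aKO, 5.65 in DKO and 7.95 in WT, a difference of -2.38.

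Stem cell genes leaned the other way by a small amount. Of 41 measured genes 30 were higher in Fancd2KO and 11 lower, with a median difference of 0.22 against 0.049 over all genes compared. With dim values raised to the floor the list median was 0.16. The lean was not particular to stem cell genes: erythroid (0.22), astrocyte and oligodendrocyte (0.22) and B cell (0.20) genes had medians of like size. At least 2-fold higher were 2 of them and at least 2-fold lower 0. Among 17 transcription factors of stem cells 16 were higher and 1 lower, with a median of 0.29, led by Gata2 at 8.96 in Fancd2KO, 8.20 in Foxo3aKO, 9.17 in DKO and 9.13 in WT. The lower one was Runx1, at -0.04. Fancd2KO was the highest array for 16 of the 41 genes and Foxo3aKO the lowest for 16. The GC-rich background was 0.41 higher in Fancd2KO, and its part in this shift was not tested.

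Selp, P-selectin, which is carried by platelet-biased stem cells, stood at 8.27 in Fancd2KO, 6.78 in Foxo3aKO, 7.07 in DKO and 6.72 in WT, a difference of 1.49. Socs2, a feedback inhibitor of cytokine receptors, stood at 7.90 in Fancd2KO, 6.85 in Foxo3aKO, 7.5 in DKO and 6.03 in WT, a difference of 1.05, while its second probe set gave 0.63. Slamf1, which encodes CD150, stood at 8.36 in Fancd2KO, 7.51 in Foxo3aKO, 7.81 in DKO and 7.25 in WT. Its difference of 0.85 is just under the 0.88 that bounds 95% of the probe set disagreements. Kit, part of the sorting gate, differed by -0.16 from a level of 10.41 in Fancd2KO and 10.57 in Foxo3aKO, and Procr, which encodes the stem cell antigen EPCR, by 0.23. The transcript of Cd34, whose antigen the gate selects against, was bright on every array, at 10.28 in Fancd2KO, 9.67 in Foxo3aKO, 10.36 in DKO and 10.79 in WT. Cd48, an antigen of more mature progenitors, stood at 7.505 in Fancd2KO, 8.13 in Foxo3aKO, 8.68 in DKO and 8.17 in WT.

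Genes of other lineages also differed by small amounts as groups. The list of multipotent progenitor and lymphoid priming genes had a median of 0.10, with 13 of 25 higher and 12 lower. Flt3, the cytokine receptor of early lymphoid progenitors, named after its value was seen, stood at 7.34 in Fancd2KO, 7.37 in Foxo3aKO, 6.67 in DKO and 8.97 in WT, so the single knockouts matched and both lay under WT. Megakaryocyte genes had a median of 0.14 (24 of 38 higher), or 0 with dim values raised, led by Selp and by the thrombin receptor F2r at 0.95, against Thbs1. Erythroid genes had a median of 0.22 (21 of 29 higher, 0 at 2-fold), dendritic cell genes one of -0.20 (18 of 26 lower), or -0.033 with dim values raised, and T and NK cell genes one of -0.10 (18 of 30 lower), which was 0.094 over the genes that reach the floor and 0 with dim values raised. Cd3d, a T cell receptor subunit, differed by -1.75 while its partner Cd3e differed by 0.34.

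Of 25 B cell genes 20 were higher in Fancd2KO, 2 of them at least 2-fold, with a median of 0.20. Igll1, a surrogate light chain of precursor B cells, stood at 6.85 in Fancd2KO, 5.66 in Foxo3aKO, 4.87 in DKO and 5.94 in WT, a difference of 1.19. Ighm, the mu heavy chain, stood at 11.38 in Fancd2KO, 10.09 in Foxo3aKO, 11.04 in DKO and 12.73 in WT, a difference of 1.29, but its 7 probe sets ran from -0.42 to 1.54. Bst1, a surface enzyme also found on myeloid cells, went against the list at -1.77. A kappa light chain variable segment on chromosome 6, of a kind that the rule for named genes leaves out and picked after its value was seen, had the largest difference of all. It stood at 11.72 in Fancd2KO, 7.18 in Foxo3aKO, 11.14 in DKO and 12.60 in WT, and the Foxo3aKO array alone was low.

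**Figure D4:**
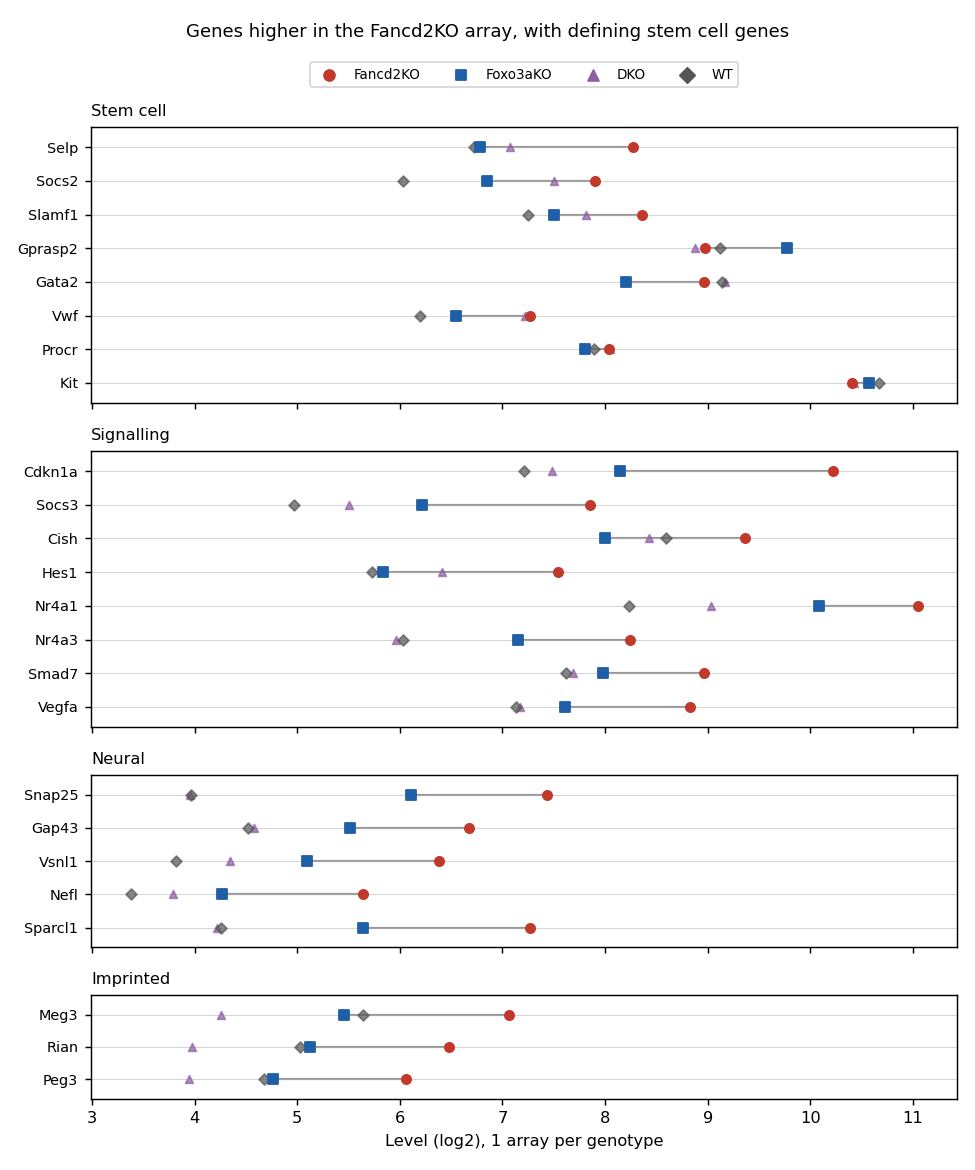
Log2 levels on each of the 4 arrays for defining stem cell genes, signalling genes, neural transcripts and imprinted genes, with a grey line joining Fancd2KO and Foxo3aKO. Fancd2KO is the rightmost point for Selp, the signalling genes, the neural transcripts and the imprinted genes, and Kit and Procr lie close together on all arrays.

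Cdkn1a and 3 inhibitors of cytokine signalling were among the genes at least 2-fold higher. Cdkn1a, the gene of p21, which arrests the cell cycle and is a target of both p53 and FOXO factors, stood at 10.22 in Fancd2KO, 8.14 in Foxo3aKO, 7.48 in DKO and 7.21 in WT, a difference of 2.08. Socs3 stood at 7.85 in Fancd2KO, 6.22 in Foxo3aKO, 5.50 in DKO and 4.97 in WT, a difference of 1.63, while its second probe set gave 0.52. Cish, another inhibitor of cytokine receptors, stood at 9.36 in Fancd2KO, 7.996 in Foxo3aKO, 8.42 in DKO and 8.59 in WT, a difference of 1.37, with 0.80 on its second probe set. With Socs2 these made 3 of the 8 SOCS genes at least 2-fold higher and 0 at least 2-fold lower, but all 3 were under 2-fold on their second probe set. At 2-fold, 0.756% of all genes compared were higher and 2.04% lower. Cdkn1a and Socs3 were higher on both single knockouts than on DKO and WT, and highest in Fancd2KO, whereas Cish was lowest in Foxo3aKO.

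Immediate early genes, which respond within minutes to stimulation or to handling of cells, did not differ as a block. Of 51 genes 34 were higher and 17 lower, with a median of 0.17, 2 at least 2-fold higher and 0 at least 2-fold lower. The list was equally bright in the pair, with a median level of 8.56 in each, against 7.75 in DKO and 7.47 in WT. Within it the 3 Nr4a nuclear receptors were all higher, with a median of 0.96. Nr4a3 stood at 8.24 in Fancd2KO, 7.15 in Foxo3aKO, 5.96 in DKO and 6.03 in WT, and Nr4a1 at 11.05, 10.09, 9.03 and 8.23. Fos and Jun each differed by -0.27 and Atf3 by -0.11, all named after their values were seen. The AP-1 genes, 9 in number, had a median of 0.08. The 16 feedback genes of the list, with 9 higher and 7 lower, had one of 0.0086, and 1 of them was at least 2-fold higher.

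Heat shock genes went in opposite directions within 1 list. Of 16 genes 13 were higher with a list median of 0.40, led by the co-chaperones Bag3 (0.82), Ahsa1 (0.74) and Stip1 (0.74), while 2 were at least 2-fold lower. Those were the inducible HSP70 genes. Hspa1a stood at 7.84 in Fancd2KO, 9.32 in Foxo3aKO, 8.19 in DKO and 7.73 in WT, a difference of -1.48, and Hspa1b at 8.55, 9.87, 8.77 and 7.85, a difference of -1.32. Both are near-identical copies on chromosome 17 and their probes may read both transcripts, so they count as 1 observation. Foxo3aKO was high for both.

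Developmental signalling genes gave single high members without a group shift. Hes1, the main target of Notch, stood at 7.54 in Fancd2KO, 5.84 in Foxo3aKO, 6.41 in DKO and 5.72 in WT, a difference of 1.70, yet the 12 Notch genes had a median of 0.03 and the 13 WNT genes one of 0.18. Smad7, the inhibitor of TGF-beta receptors, stood at 8.97 in Fancd2KO, 7.98 in Foxo3aKO, 7.69 in DKO and 7.61 in WT, just under 2-fold. Id3, a target of bone morphogenetic proteins, differed by 1.61 as measured and by 0.02 with dim values raised, so its size is set by signals under the floor. The TGF-beta, BMP and Id list had 15 of 21 genes higher and a median of 0.17. Vegfa, the vascular growth factor that hypoxia induces, stood at 8.83 in Fancd2KO, 7.61 in Foxo3aKO, 7.17 in DKO and 7.13 in WT, while the glycolysis and hypoxia list had a median of 0.02.

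Transcripts best known from neurons were higher in Fancd2KO. Of 52 measured genes 44 were higher and 8 lower, 8 were at least 2-fold higher and 0 at least 2-fold lower, and the median difference was 0.38. Of 22180 genes measured without the floor, 0.546% were at least 2-fold higher and 1.39% at least 2-fold lower. The median levels were low, 5.71 in Fancd2KO, 5.29 in Foxo3aKO, 4.56 in DKO and 4.70 in WT, and 30 of the 52 genes reached the floor. Fancd2KO was the highest array for 42 of them. With dim values raised to the floor the list median was 0.047. Of the 8 genes past 2-fold, 6 were among the genes compared. Raising dim values put Rian (0.97), Vsnl1 (0.87) and Nefl (0.13) under 2-fold, while Meg3, Snap25 and Gap43 stayed past it.

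Snap25, of the synaptic fusion machinery, stood at 7.43 in Fancd2KO, 6.11 in Foxo3aKO, 3.96 in DKO and 3.97 in WT, a difference of 1.32. Sparcl1, a matrix protein of astrocytes and vessels on the astrocyte list, stood at 7.27 in Fancd2KO, 5.64 in Foxo3aKO, 4.22 in DKO and 4.26 in WT. Gap43, a growth cone protein, stood at 6.67 in Fancd2KO, 5.51 in Foxo3aKO, 4.58 in DKO and 4.52 in WT. In these 3 genes the arrays stood in the order Fancd2KO, Foxo3aKO and then DKO and WT close together. The neurofilament gene Nefl differed by 1.38, or 0.13 with dim values raised. Other defining neuronal genes were dim on all arrays: Syt1 stood at 5.24 in Fancd2KO, 5.36 in Foxo3aKO, 4.96 in DKO and 4.59 in WT, and Map2 and Dcx, named after their values were seen, stayed under the floor. The source of these transcripts in sorted marrow cells was not tested.

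Maternally expressed noncoding RNAs of the Dlk1-Meg3 domain and a paternally expressed imprinted gene shared that direction. Meg3 stood at 7.06 in Fancd2KO, 5.46 in Foxo3aKO, 4.26 in DKO and 5.64 in WT, a difference of 1.60. Rian, from the same domain on chromosome 12, stood at 6.48 in Fancd2KO, 5.13 in Foxo3aKO, 3.97 in DKO and 5.03 in WT. Peg3, on chromosome 7, stood at 6.06 in Fancd2KO, 4.76 in Foxo3aKO, 3.94 in DKO and 4.67 in WT. For all 3 genes Fancd2KO was the highest array, DKO the lowest, and Foxo3aKO near WT. With dim values raised the differences were 1.56, 0.97 and 0.56. The list of imprinted genes had 6 of 10 higher, with a median of 0.22, and Meg3 and Rian are also on the neuronal list.

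Genes of the pathways the 2 proteins belong to differed little. On the list of FOXO targets 32 of 47 genes were higher and 15 lower, with a median of 0.12, 2 at least 2-fold higher and 0 at least 2-fold lower. The 10 stress-defence members had a median of 0.19 and the 6 autophagy members one of 0.23. Besides Cdkn1a, the gene past 2-fold was S1pr1, a sphingosine phosphate receptor that guides cell exit from marrow, at 8.30 in Fancd2KO, 7.10 in Foxo3aKO, 6.43 in DKO and 6.83 in WT. Bcl6 (-0.84) and Btg1 (-0.80) were the largest lower ones. Of 25 p53 targets 13 were higher and 12 lower (median 0.05), and Cdkn1a, also on this list, had the largest difference. The death receptor gene Fas differed by -1.21, or by -1.12 with dim values raised, and the death receptor gene Tnfrsf10b by 0.96. Fas stood at 5.42 in Fancd2KO, 6.63 in Foxo3aKO, 5.53 in DKO and 5.92 in WT.

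Fanconi anaemia and homologous recombination genes had a median of 0.06, with 21 of 33 higher, 12 lower and 0 at 2-fold. Fancg, a core complex member, had the largest difference, 0.98, at 7.40 in Fancd2KO, 6.42 in Foxo3aKO, 6.89 in DKO and 6.78 in WT. Checkpoint and end joining genes had a median of 0.12, with 24 of 30 higher and 0 at 2-fold. DNA replication genes had one of 0.20, with 36 of 44 higher and 0 at 2-fold, and the flap endonuclease Fen1, their largest at 0.87, gave -0.10 with its second probe set. Mitosis genes stood at -0.05, with 26 of 43 lower, and at 0.021 with arrays centred. Respiratory chain genes were higher in 55 of 67 cases with a median of 0.20 and 0 at 2-fold. Cytosolic ribosomal protein genes were higher in 31 of 40, with a median of 0.17. Each of these medians is smaller than the 0.41 by which the GC-rich background differed, and the base content of single probe sets was not known.

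Interferon response genes differed by role in their counts. The whole list had a median of 0.14, with 30 of 51 higher and 21 lower, 1 at least 2-fold higher and 2 at least 2-fold lower. The 8 GTPase genes were lower in 7 cases with a median of -0.30, led by Gbp4 (-0.88, or -0.55 with dim values raised) and Irgm2 (-0.71). The 26 effector genes were higher in 19 cases with a median of 0.17, and 1 was at least 2-fold higher and 1 at least 2-fold lower. The lower one was Slfn1, a Schlafen gene, at 8.28 in Fancd2KO, 9.31 in Foxo3aKO, 7.92 in DKO and 8.82 in WT, a difference of -1.03. Bst2, which tethers budding viruses to the membrane, stood at 8.37 in Fancd2KO, 7.30 in Foxo3aKO, 7.41 in DKO and 8.14 in WT, a difference of 1.07, so both arrays labelled as lacking Foxo3a were the lower ones. Oas2, an activator of RNA decay, stood at 8.36 in Fancd2KO, 7.55 in Foxo3aKO, 7.66 in DKO and 8.28 in WT, in the same order.

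Metabolic and stress lists held single large members. Among 28 antioxidant genes 22 were higher, with a median of 0.14. The cystine transporter Slc7a11 stood at 5.78 in Fancd2KO, 7.34 in Foxo3aKO, 5.81 in DKO and 5.52 in WT, a difference of -1.56, and its second probe set gave -1.26. The metallothionein Mt2 differed by 1.13 and the glutathione transferase Mgst1 by -1.11. Cholesterol and lipid uptake genes had a median of 0.24, with 17 of 22 higher, led by Fabp4, a fatty acid carrier of fat cells, macrophages and capillary endothelium. Fabp4 had the largest higher difference of all nameable genes, 3.37, at 7.47 in Fancd2KO, 4.10 in Foxo3aKO, 9.22 in DKO and 5.16 in WT, or 1.96 with dim values raised. The 2 arrays labelled as lacking Fancd2 were the high ones. Endothelial and stromal genes were dim, at a median level of 5.12 in Fancd2KO, 4.99 in Foxo3aKO, 5.06 in DKO and 4.84 in WT, and had a median difference of 0.18, or 0 with dim values raised.

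The remaining genes among the 15 largest higher differences were of mixed kinds. Rsl1, a zinc finger repressor of male liver genes, stood at 6.14 in Fancd2KO, 3.77 in Foxo3aKO, 6.33 in DKO and 6.36 in WT, so Foxo3aKO alone was low, and the difference of 2.37 was 0.64 with dim values raised. Rnf122, a ubiquitin ligase, stood at 8.57 in Fancd2KO, 6.99 in Foxo3aKO, 8.03 in DKO and 8.53 in WT, again with Foxo3aKO low. Rsph3a, a cilium gene, stood at 8.47 in Fancd2KO, 6.27 in Foxo3aKO, 6.44 in DKO and 6.20 in WT. Its difference of 2.20 was not shared by its second probe set, which gave 0.01, and Slc16a9, at 1.46, had a second probe set at -0.21. Timp3, an inhibitor of matrix proteases, differed by 1.67, or 1.2 with dim values raised.

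The remaining lists had medians close to that of all genes: 0.12 for MHC class I and peptide loading (14 genes), 0.17 for the unfolded protein and integrated stress response (19), 0.09 for mTOR and insulin signalling (21), 0.01 for autophagy and lysosome (27), 0.02 for cyclin-dependent kinase inhibitors and D cyclins (15) and -0.02 for replication-dependent histones (7). Astrocyte and oligodendrocyte genes stood at 0.22 over 23 genes, or 0 with dim values raised, and Mbp of myelin, named after its value was seen, did not differ at 6.71 on both arrays.

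**Figure D5:**
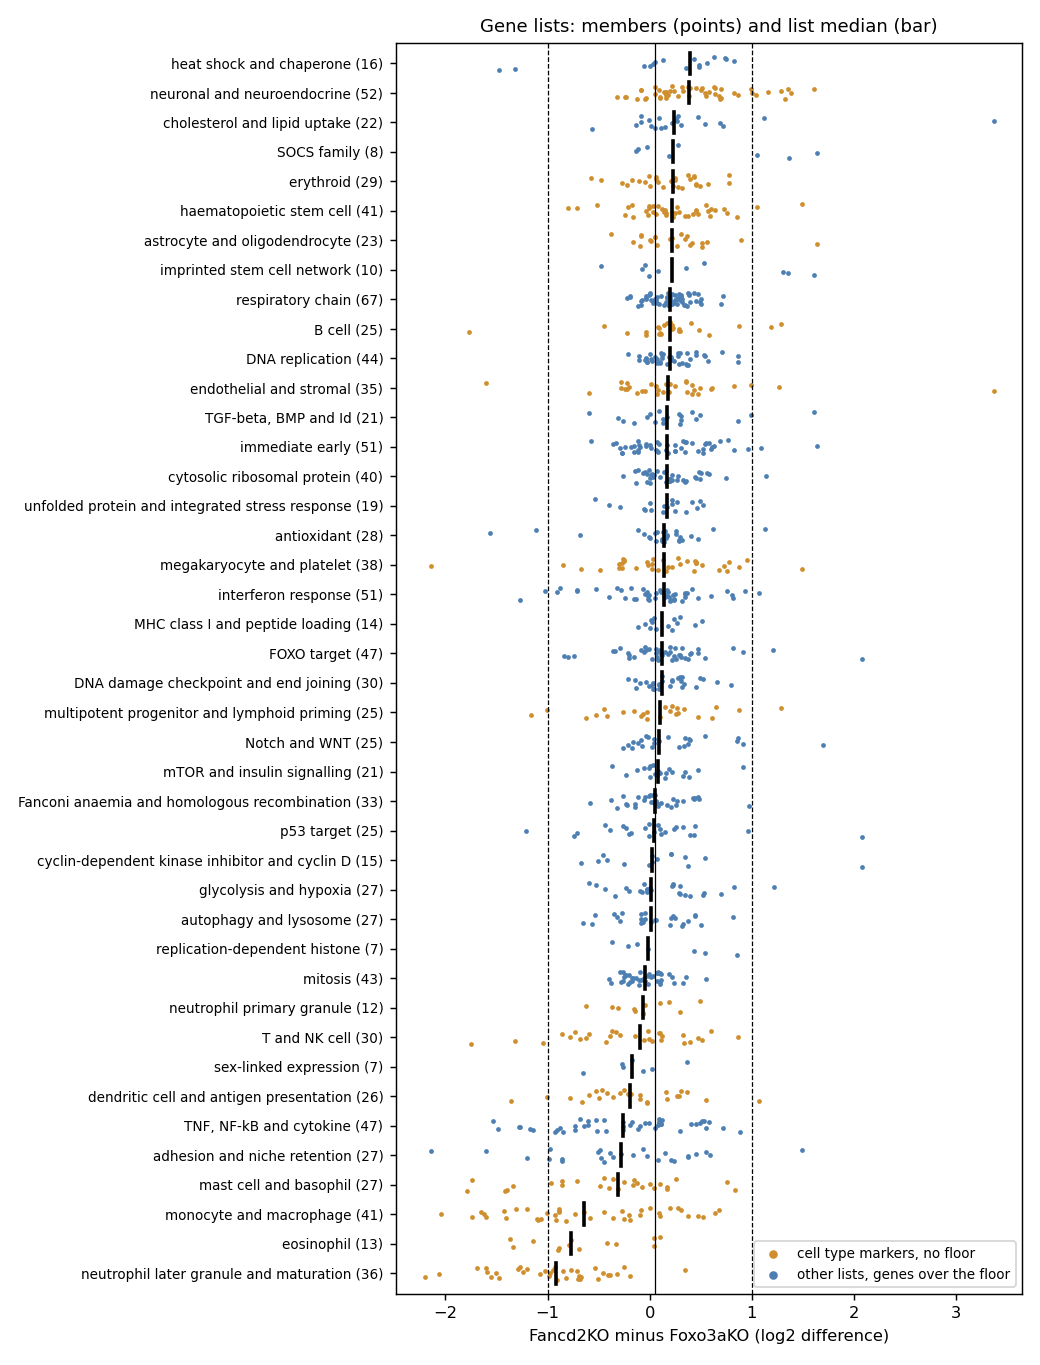
Fancd2KO minus Foxo3aKO difference (log2) of the members of 42 lists (points) with the list median (black bar) and the number of genes measured in brackets; the solid line is the median of all genes compared, 0.049, and dashed lines mark 2-fold. The 3 lowest bars are later neutrophil (-0.92), eosinophil (-0.77) and monocyte (-0.64) genes, and the 2 highest are heat shock (0.40) and neuronal (0.38) genes.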

How the data were processed

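RNA of sorted cells was hybridised to 1 Affymetrix Mouse Gene 2.0 ST array per genotype. The deposited table holds log2 expression values made by the authors, as the range of the values shows. Per the submitters' processing notes, Expression Console of Affymetrix made them. Not given in the sources used here were its version, the summarisation, the normalisation and the genome build. Ranked by size, the 4 arrays stayed within 0.0889 of their mean, and the values were used as deposited.

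Of 41345 probe sets, the platform annotation gave 23521 a single symbol, 1814 several and 16010 none. The RefSeq gene table of GRCm38.p6 held the Entrez identifiers of 23328 and was used for names, chromosomes and gene order. Sequences are RefSeq promoters of that build. The brightest probe set by the mean of the 4 arrays stood for its gene. Marker lists used no floor; other lists used the floor of 5.51.

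Named genes were Fancd2 and Foxo3, the 15 largest differences in each direction, up to 6 members per list that reached the floor, and the defining markers. Antigen receptor segments, chemosensory receptor genes, small RNAs, pseudogenes and predicted or clone-named genes (1188 of 12041) were counted, not named. Outside the rule, chosen after their values were seen, are Adgre1, Atf3, C1qb, Cd300lf, Clec4a2, Clec4e, Clec4n, Cstdc5, Dcx, Flt3, Fos, Fpr2, Gfi1, Irgm2, Jun, Map2, Mbp, Mmp8, Nfkb2, Oas2, Rela, Runx1, Spic, Tlr3 and Tlr9. Genes that several lists hold count in each. The members and lists were chosen with earlier results of these data known. Some listed genes had no single-symbol probe set and were not analysed here.

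No test was run, since each genotype had 1 array; the number of arrays limits the precision. The counting step was tested on simulated data with far less noise than the disagreement of probe sets. That checks the counting itself and not how reliable the counts are. Alternatives were quantile normalisation, centring of arrays, cyclic loess, the mean of probe sets, other floors, raised dim values and other fold thresholds. Python 3.11.15, numpy 2.4.6, pandas 2.3.3, Biopython 1.88, matplotlib 3.10.9, R 4.3.3 and limma 3.58.1 (loess only) were used.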

Additional observations from a re-analysis of the deposited data

How the results depend on the processing

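List medians were recomputed under 6 alternatives and named differences under 5; the other floors, the fold thresholds and the neighbour width were run for counts alone. In those runs no list median of at least 0.2 in size and no named difference of at least 1 in size turned its sign. Smaller values did in 7 recomputed list medians and 4 named differences: centring turned primary granule (0.0046), mitosis (0.021) and histone (0.051) genes above 0, with Mpo, Elane, Kdm6a and Glo1; quantile normalisation turned histone genes (0.028); loess turned cyclin-dependent kinase inhibitor (-0.0058) and autophagy (-0.015) genes below 0; and the floor turned T and NK cell genes above 0 (0.094). Of the recomputed list medians 221 moved by no more than the probe set disagreement SD over the root of the list's size, and 31 moved by more; of the named differences 1322 moved by no more than that SD and 23 by more. The counts of genes past the threshold were 675 higher and 721 lower at 1.5-fold, and 16 higher and 54 lower at 3-fold, against 91 and 246 at 2-fold. The neuronal median of 0.38 was 0.45 after quantile normalisation and after centring, 0.61 with the floor and 0.047 with dim values raised to the floor. Centring gave 0.29 for stem cell, -0.57 for monocyte, -0.19 for TNF and NF-kB and 0.27 for respiratory chain genes. The floor gave -0.73 for monocyte and 0.36 for astrocyte and oligodendrocyte genes. Without a floor, TNF and NF-kB genes stood at -0.12 and adhesion genes at -0.16, the value that the mean of probe sets gave too. With dim values raised, medians were 0 for astrocyte and oligodendrocyte genes and for mast cell and basophil genes, 0.13 for cholesterol and -0.19 for TNF and NF-kB genes. The raised values make dim genes equal by construction; the cause of the other shifts was not tested. Centring moved the median of all genes by 0.07. No replicate could be left out. No paired analysis was possible because each genotype had 1 array. Under 5.51 log2, the level of the floor, sizes are not exact.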

Other observations

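Families of genes that reached the floor and whose symbols share a stem were grouped after the values were seen. Some leaned one way without any of these members at 2-fold. All 15 Timm genes, which import proteins into mitochondria, were higher in Fancd2KO, with a median difference of 0.36 and a range of 0.11 to 0.86. The 9 Nol genes, named for the nucleolus, were all higher, with a median of 0.41, and so were 6 of 7 Rrp genes of ribosomal RNA processing, with a median of 0.44. The 7 Haus genes of the mitotic spindle (median 0.39) and the 6 Tubb genes of beta tubulin (median 0.51) were all higher too. Tubb3, left out because it lay under the floor, differed by 1.04 as measured and by 0 with dim values raised. The family medians are close to the 0.41 by which the GC-rich background differed. The part of that offset in them was not tested, and the base content of their probe sets was not known.

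Xist, the RNA of the inactive X chromosome, stood at 10.18 in Fancd2KO, 10.83 in Foxo3aKO, 10.84 in DKO and 11.06 in WT. Eif2s3y, from the Y chromosome, stood at 8.54 in Fancd2KO, 8.81 in Foxo3aKO, 8.50 in DKO and 7.92 in WT. Transcripts of both were thus bright on every array. Of 8 Y chromosome genes compared, 4 multicopy or predicted genes were at least 2-fold lower in Fancd2KO as measured. Of these, Gm20747 and Gm20815, named after their values were seen, reached the floor through Foxo3aKO alone and differed by -0.66 and -0.046 with dim values raised. For Gm20816 and Srsy the raised differences were -1.49 and -1.24.

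Among the 100 compared genes nearest to Fancd2 on chromosome 6, 0 were at least 2-fold higher and 1, Alox5, was at least 2-fold lower (1%). Among the nearest 200, a width chosen after seeing the data, 6 were at least 2-fold lower (3%), and 4 of them were the Clec4 genes Clec4a1, Clec4a2, Clec4a3 and Clec4e. Near Foxo3 on chromosome 10, 1 of 100 genes was at least 2-fold higher and 2 were at least 2-fold lower. Over all genes compared 0.756% were at least 2-fold higher and 2.04% at least 2-fold lower, and on chromosome 6 the lower share was 3.75%, so the counts near both genes are close to these shares.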
